A study of Mus musculus with 10 samples.

Results

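The genes described here encode the proteins of the cytosolic ribosome. They were taken from the deposited count table by symbol, as protein-coding rows whose names start with *Rpl* followed by a digit or p, or with *Rps* followed by a digit or a, without the pseudogenes and the kinases whose names begin with *Rps6k*. The rule found 82 of the 14300 genes, of which 48 belong to the large subunit and 32 to the small subunit. The other 2, *Rps19bp1* and *Rpl7l1*, share the naming but encode proteins that are not part of the mature ribosome, and they are described apart. There were 13 rows of pseudogene type and 10 kinase rows that the rule left out. All 82 genes passed the minimum-count filter, which removed no gene of the table. All 14300 rows lie above 0.5 CPM in at least 5 libraries, so genes at lower levels may have been left out before deposit. Shares of all genes and of all counts refer to these rows.

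The libraries came from embryos of the *Grem1creERT; Rosa26LSLTdtomato* line on a C57BL/6J background. This line carries a tamoxifen-inducible Cre recombinase under *Grem1* control and a TdTomato reporter that Cre switches on, which turns cells with active Cre after tamoxifen red, together with their progeny. Dams received tamoxifen by gavage in mid-gestation, the dorsal telencephalon of the embryos (E14.5) was dissected without meninges 24 hours later, and live cells were sorted into a TdTomato+ and a TdTomato- population, both carrying the same alleles and the same treatment. Each population gave 5 libraries of polyadenylated RNA, 1 for each of the mice numbered 2 to 6, with total counts of 23429034 to 27286180. The gate rests on Cre activity within 1 day of tamoxifen, and the sources do not say whether a mouse number stands for 1 embryo or for pooled embryos. If the latter, or if a number is not an independent animal, the p-values measure only the spread between these libraries. The sample descriptions name the brain where the methods name the dorsal telencephalon, and the 2 sources give different library kits, sequencers and read lengths.

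The ribosome is built from ribosomal RNA and a nearly fixed set of proteins. The small subunit holds the decoding site, where transfer RNA is read against the messenger, and the large subunit holds the peptidyl transferase centre, the tunnel through which the new chain leaves, and the stalk that recruits the elongation factors. Transcripts of ribosomal proteins are among the most abundant in dividing cells. Most of them start with a C followed by an unbroken stretch of pyrimidines, the 5' terminal oligopyrimidine (TOP) motif, through which mTOR signalling and the RNA-binding protein Larp1 set their translation and stability. A few genes have paralogues whose products can take the place of the standard protein, among them *Rpl22l1* for *Rpl22* and *Rps27l* for *Rps27*.

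Start-site sequences were available for 62 of the 82 genes as RefSeq windows on GRCm38.p6, each reaching from 250 bases before to 50 bases after an annotated start. The stretches below show 2 paralogue pairs, 2 stalk genes and 4 small subunit genes described further on, because pyrimidine runs near the start are the letters a TOP motif is made of. Each line gives 30 bases on the coding strand, 5' to 3', and the capitals mark the longest run of C and T that begins with C within 40 bases of the start, or the first such run where 2 are equally long, as for *Rps27l*.
*Rpl22*, chr4:152325679-152325708, plus strand: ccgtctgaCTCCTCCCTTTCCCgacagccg
*Rpl22l1*, chr3:28805500-28805529, plus strand: gcaagcccgttCTCTTCCCacggctgcagc
*Rps27*, chr3:90213632-90213661, minus strand: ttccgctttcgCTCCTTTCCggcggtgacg
*Rps27l*, chr9:66946053-66946082, plus strand: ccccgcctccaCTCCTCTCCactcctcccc
*Rplp2*, chr7:141447636-141447665, plus strand: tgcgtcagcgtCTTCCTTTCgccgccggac
*Rplp0*, chr5:115559467-115559496, plus strand: ggaccgcctggttCTCCTataaaaggcaca
*Rps24*, chr14:24490665-24490694, plus strand: cgcgctggggtCCTTCCTTgcgcgttgata
*Rps25*, chr9:44407684-44407713, plus strand: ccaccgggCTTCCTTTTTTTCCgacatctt
*Rps15a*, chr7:118116143-118116172, minus strand: gcccggcccaCTCTCTTTCTgccatcttcc
*Rpsa*, chr9:120127775-120127804, plus strand: ccggccgcccgtCCTTTCgcgctacccggg

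In these 10 stretches the run had at least 8 bases for 8 genes, and 5 and 6 bases for *Rplp0* and *Rpsa*. Counted from the first base of the RefSeq transcript, the runs began at -39 for *Rpl22*, at -22 for *Rps27l* and *Rps25*, at -15 for *Rps15a*, at -4 for *Rplp2*, at -2 for *Rps27* and *Rps24*, and inside the transcript at 4 for *Rpl22l1*, 14 for *Rplp0* and 22 for *Rpsa*. The stretches of *Rpl22* and *Rps27l* end before the annotated gene begins. The search therefore counts runs near a start and does not show that a transcript begins with one. A run of at least 8 bases was found for 43 of the 62 genes (69.4%), against 26.1% of the 27025 genes with such windows. Read on the other strand, the same search matched 12 of the 62 (19.4%) and 29.2% of all genes. By subunit, 29 of 36 large subunit genes and 14 of 24 small subunit genes had a run on the coding strand. The median log2 fold change was -0.21 for genes with a run and -0.22 for those without. The letters CCGGAAG, searched on both strands of the whole 300-base window, occurred for 25 of the 62 genes (40.3%) and for 9.93% of all genes. A match describes the letters in these windows and does not show a site in use.

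Ribosomal protein transcripts took a smaller part of the TdTomato+ libraries. In TdTomato- libraries the large and small subunit genes together held 1.74 ± 0.0956% of all counts (SD, n = 5), with a range of 1.66 to 1.87%. In TdTomato+ libraries they held 1.32 ± 0.0716% (SD, n = 5), with a range of 1.24 to 1.41%, so the ranges did not overlap. The share was lower in 5 of 5 mice, and the mean share was 24.2% smaller.

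The large subunit genes held 0.948, 0.953, 0.967, 1.05 and 1.07% of the counts in the TdTomato- libraries of mice 2 to 6, and 0.80, 0.737, 0.728, 0.773 and 0.827% in the TdTomato+ libraries of the same mice. For the small subunit genes the shares were 0.71, 0.717, 0.724, 0.775 and 0.796% in TdTomato- libraries and 0.568, 0.521, 0.515, 0.544 and 0.585% in TdTomato+ libraries. Every TdTomato+ share was below every TdTomato- share for both subunits, and the narrowest gap was that of mouse 2. The small subunit lost the larger part, 26.6% of its mean share against 22.4% for the large subunit. The ratio of large to small subunit counts accordingly ran from 1.33 to 1.35 in TdTomato- libraries and from 1.41 to 1.42 in TdTomato+ libraries, without overlap. A share of counts uses no scaling factor, but it also falls when other transcripts take more of a library. Reads that match several places in the genome equally are missing from it, since only unique alignments were counted.

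**Figure D1:**
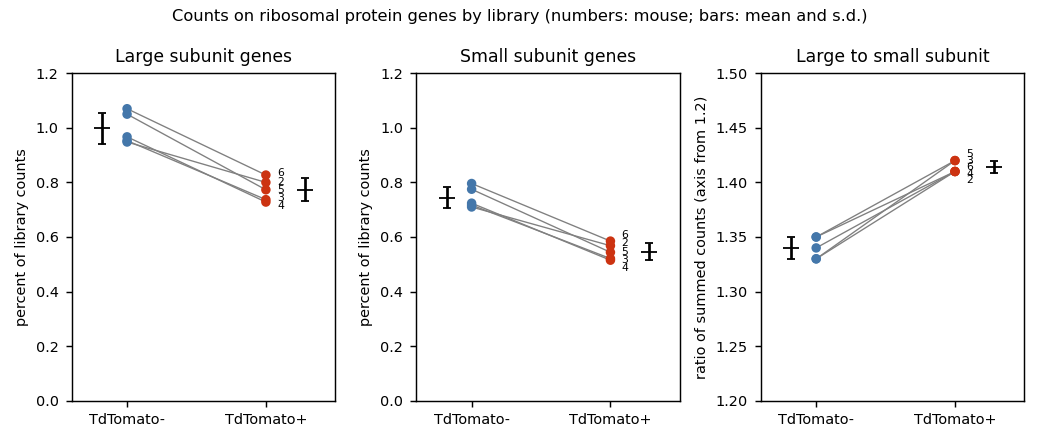
Percent of library counts on large subunit genes (left) and small subunit genes (middle), and the ratio of their summed counts (right, axis from 1.2), for the 10 libraries. Points joined by a line are the libraries of 1 mouse, numbered at the right, and the bars are the mean and SD of 5 libraries. In both subunits every TdTomato+ point lies below every TdTomato- point, and the ratio is 1.41 to 1.42 in TdTomato+ against 1.33 to 1.35 in TdTomato- libraries.

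Gene by gene, levels are given in CPM, counts relative to the TMM-scaled library size, and the populations were compared by the edgeR quasi-likelihood test, blocked by mouse. TMM gave factors of 1.06 to 1.07 for TdTomato- and of 0.929 to 0.946 for TdTomato+ libraries, so scaled levels differ less between the populations than the shares above. A gene was called when its p, adjusted by Benjamini-Hochberg over the 14300 genes, was 0.05 or less. Of the 82 genes, 59 were lower in TdTomato+ cells and 2 were higher, *Rpl22* and *Rps15a*, while 21 were not called. Among all genes, 39.4% were called lower and 37.9% higher. By subunit, 29 of 48 large subunit genes were lower and 1 higher, and 29 of 32 small subunit genes were lower and 1 higher. The levels of 44 of the 82 genes were lower without any overlap between the 5 TdTomato+ and the 5 TdTomato- libraries, a pattern held by 32.4% of all genes. Of the 82 genes, 54 were lower in 5 of 5 mice, as were 38.9% of all genes.

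The differences were small. On the log2 scale 4 genes fell by 0.5 or more, *Rps27l*, *Rpl22l1*, *Rpl7l1* and *Rps24*, and none rose by that much, against 25.3% and 24.2% of all genes. When libraries were scaled by their totals alone, 26 genes passed 0.5. No ribosomal protein gene reached an absolute log2 fold change of 2, the threshold of the study, which 12.9% of all genes passed. The median log2 fold change of the large subunit genes was -0.20, a level 12.7% lower, beside -0.01 over all genes, and it took a positive sign, 0.07, only under an alternative with GC and length offsets that also moved the median of all genes to 0.18. For the small subunit genes the median was -0.30, or 18.5% lower, and stayed negative under each of the 15 alternative settings. Measured from the median of all genes, the large subunit lay at -0.21 to -0.11 and the small subunit at -0.32 to -0.23 across these settings. The split of calls does depend on centring. It was 76 lower and 1 higher when libraries were scaled by their totals alone, 22 lower and 21 higher under the GC and length offsets, and 53 lower and 5 higher when the same offsets were brought to a mean of 0 in each library, an alternative added after the data had been seen.

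In every mouse both subunits had a lower median, and mouse 2 had the smallest difference. The median difference between the TdTomato+ and the TdTomato- library, in log2 CPM, was -0.06, -0.20, -0.25, -0.28 and -0.19 over large subunit genes in mice 2 to 6. Over small subunit genes it was -0.16, -0.30, -0.34, -0.34 and -0.27. Over all genes it was -0.02 to 0.00. In each mouse the small subunit lay further below zero than the large subunit. In mouse 2, 27 of 48 large subunit genes and 26 of 32 small subunit genes were lower, and in the other mice 41 to 45 and 30 to 32 were, beside 50.1 to 51.1% of all genes in each mouse.

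**Figure D2:**
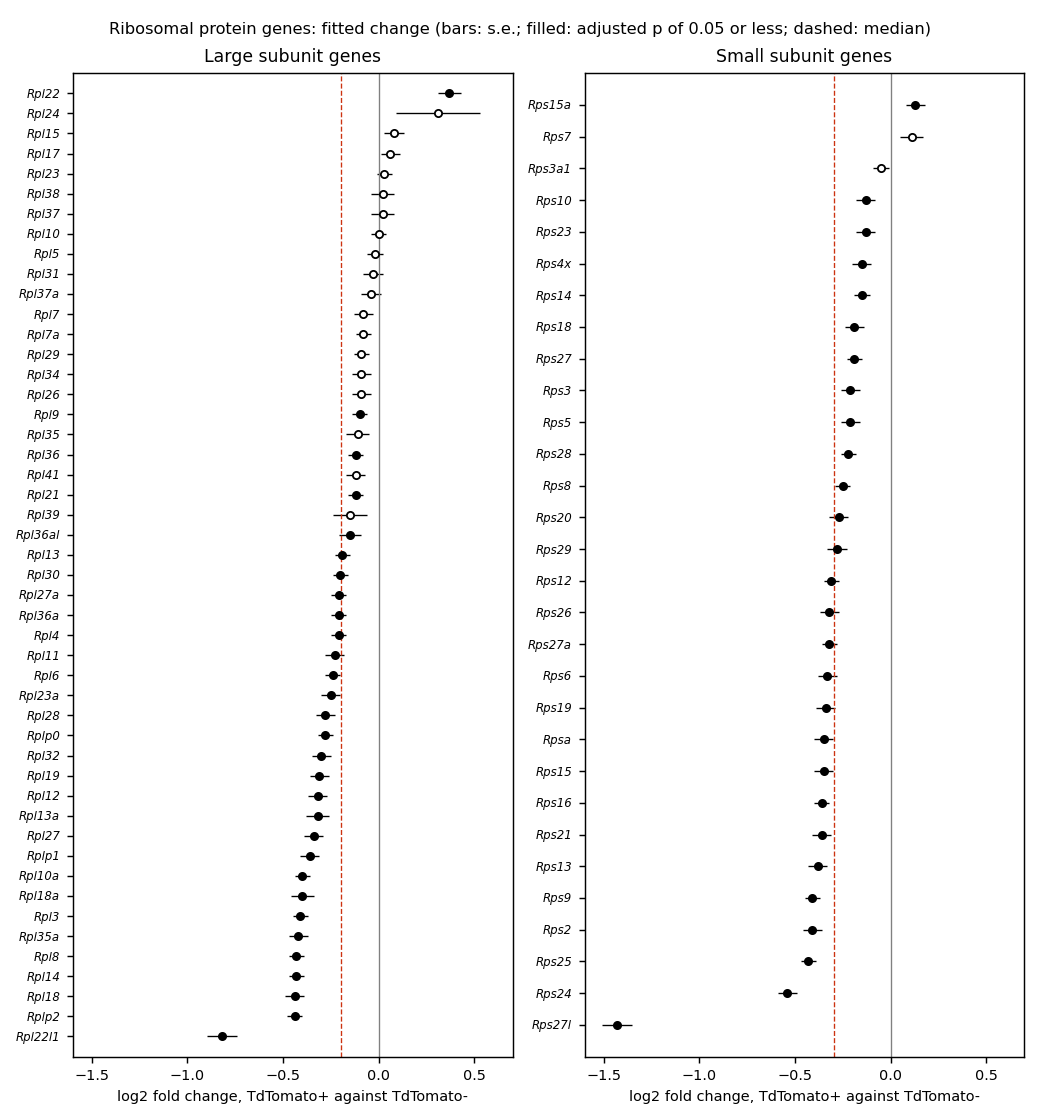
Fitted log2 fold change, TdTomato+ against TdTomato-, of large subunit genes (left, 48 genes) and small subunit genes (right, the genes reported here), sorted, with standard errors as bars. Filled points were called at an adjusted p of 0.05 or less and the dashed lines are the medians, -0.20 and -0.30 (the large subunit median is 0.07 under GC and length offsets that move all genes to 0.18). Most genes lie within 0.5 of zero, with *Rps27l* and *Rpl22l1* far to the left and *Rpl22* as the only called large subunit gene to the right.

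The 2 populations also differed in the levels of cell type markers. All 10 markers of radial glia and progenitors were lower in TdTomato+ cells, with a summed level of 144 to 209 CPM against 2220 to 2750 CPM in TdTomato- libraries. All 6 proliferation markers were lower, 53.6 to 87.0 against 1500 to 1820 CPM, and all 6 GABAergic markers were lower, 35.5 to 51.9 against 1180 to 1510 CPM. Of 6 markers of deep layer cortical neurons 5 were higher, with a summed level of 4770 to 5820 CPM against 1240 to 1680 CPM, so the TdTomato+ libraries carry the markers of cortical neurons and few of those of dividing cells. Markers of blood, vessels, microglia and meninges were at lower levels, and lower still in TdTomato+ libraries. Erythroid markers summed to 1.18 to 25.7 against 74.2 to 258 CPM (5 of 5 in the table lower), microglial markers to 0.680 to 1.31 against 11 to 51.3 CPM (4 of 4 lower), and markers of meninges and pericytes to 1.59 to 2.63 against 12.2 to 16.0 CPM (3 of 4 lower). Endothelial markers summed to 0.678 to 1.91 against 2.05 to 3.62 CPM (1 of 2 lower). The defining markers *Aif1*, *Cdh5*, *Cldn5*, *Tek*, *Col1a1* and *Lum* are not among the rows analysed here. The part of any of these cell types in the ribosomal protein result was not tested, and in bulk RNA fewer cells of a type and less RNA per cell cannot be told apart.

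Within the large subunit the stalk genes fell together. *Rplp0*, *Rplp1* and *Rplp2* encode the acidic P proteins that form the stalk, which contacts the elongation factors. The largest change of these was that of *Rplp2* (ENSMUSG00000025508, chromosome 7 from 141447370 to 141451585, plus strand of GRCm38). Its level was 242, 249, 263, 251 and 258 CPM in the TdTomato- libraries of mice 2 to 6 and 198, 177, 184, 181 and 194 CPM in their TdTomato+ libraries, a log2 fold change of -0.44 (SE 0.04, adjusted p = 1.6e-05, edgeR). No TdTomato+ library reached the lowest TdTomato- library. *Rplp1* fell from 146 ± 10.8 to 113 ± 6.65 CPM (SD, n = 5 each), with a log2 fold change of -0.36, and *Rplp0* from 711 ± 70.7 to 584 ± 36.4 CPM, with one of -0.28. The groups did not overlap for either gene, but the call of *Rplp0* was lost under the GC and length offsets (log2 fold change -0.03, adjusted p = 0.51 by edgeR). *Rpl12*, whose product sits at the base of the stalk, fell by 0.32 on the log2 scale.

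*Rpl8* (ENSMUSG00000003970, chromosome 15 from 76904078 to 76906314, plus strand) encodes a protein bound close to the catalytic centre. It was at 421, 454, 456, 489 and 506 CPM in TdTomato- libraries and at 337, 341, 344, 335 and 365 CPM in TdTomato+ libraries, a log2 fold change of -0.43 (SE 0.04, adjusted p = 1.2e-05, edgeR), without overlap. *Rpl3*, another protein of this region, fell by 0.41, from 235 ± 9.70 to 177 ± 9.57 CPM (SD, n = 5 each). *Rpl14* and *Rpl18* fell by 0.43 and 0.44 on the log2 scale, and their groups did not overlap.

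*Rpl4*, whose product lines the exit tunnel and which was among the 3 large subunit genes with the most counts per kb of exon (359 CPM per kb in TdTomato- and 310 in TdTomato+ cells), had a log2 fold change of -0.21 (SE 0.04, adjusted p = 0.0013, edgeR), with 0.06 under the GC and length offsets. *Rpl17*, whose product lines the tunnel as well, had 206 ± 11.9 CPM in TdTomato- and 215 ± 20.3 CPM in TdTomato+ libraries (SD, n = 5 each). It was not called, with a log2 fold change of 0.06 (SE 0.05). It was called lower when libraries were scaled by their totals alone, with -0.12, and higher under the GC and length offsets, with 0.29. Around the exit, *Rpl23a* fell by 0.25, whereas *Rpl35* had a log2 fold change of -0.11 (SE 0.06) and was not called. Much of the exonic length of both genes overlaps other genes, 62.3% for *Rpl23a* and 66.2% for *Rpl35*, so their counts are less certain. The same limit applies to 12 of the 82 genes at 20% or more of exonic length, among them *Rpl36al* (24.5%), *Rps25* (24.8%), *Rpl5* (26.7%) and *Rps10* (28.7%).

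The 5S ribonucleoprotein joins *Rpl5* and *Rpl11* products with 5S ribosomal RNA, and outside the ribosome this particle binds Mdm2, the ubiquitin ligase of p53. *Rpl11* fell by 0.23 on the log2 scale, from 202 ± 13.9 to 173 ± 12.1 CPM (SD, n = 5 each). *Rpl5* had 139 ± 4.07 and 137 ± 9.82 CPM and was not called, with a log2 fold change of -0.02 (SE 0.04). *Rpl10*, among the last proteins to join the large subunit, stood at 274 ± 15.6 and 274 ± 10.3 CPM with a log2 fold change of 0.00 (SE 0.04). The remaining large subunit genes that were not called had log2 fold changes of -0.15 to 0.08, apart from *Rpl24*.

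*Rpl24*, an intersubunit bridge protein, had only 20 to 33 counts per library, or 0.801 to 1.49 CPM, and a log2 fold change of 0.31 with an SE of 0.22, not called as reported but called under the GC and length offsets (0.54). Of its exonic length 47.0% lies within *Gm28037*, a transcript on the same strand, and reads that fall on 2 genes are not assigned to either in counts of this kind, so this level is uncertain. *Rpl36* had the third highest density of large subunit genes in TdTomato- cells, 345 CPM per kb, next to 429 for *Rplp0* and 359 for *Rpl4*. Its change was slight, a log2 fold change of -0.12 (SE 0.04, adjusted p = 0.029, edgeR), with overlapping groups and an adjusted p of 0.064 to 0.12 under 6 of the 15 alternatives. Such densities, in both subunits, divide by the joined length of all annotated exons, 383 bases for *Rpl36* and 1659 for *Rplp0*. Their ranks therefore depend on the annotation.

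In the small subunit 3 of the 32 genes were not called lower, namely *Rps15a*, *Rps7* and *Rps3a1*. Under the GC and length offsets 10 of the 32 were called lower. *Rps24* (ENSMUSG00000025290, chromosome 14 from 24487125 to 24496959, plus strand), a gene mutated in Diamond-Blackfan anaemia, fell by the most among the standard genes. It was at 243, 209, 209, 245 and 253 CPM in TdTomato- libraries and at 180, 149, 155, 149 and 165 CPM in TdTomato+ libraries, a log2 fold change of -0.54 (SE 0.05, adjusted p = 1.1e-05, edgeR), and the groups did not overlap. *Rps19* and *Rps26* fell by 0.34 and 0.32 on the log2 scale.

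Along the path of the messenger, *Rps2* and *Rps3* encode proteins of the entry channel. *Rps2* (ENSMUSG00000044533, chromosome 17 from 24718116 to 24721929, plus strand) was at 267, 308, 306, 308 and 323 CPM in TdTomato- libraries and at 225, 229, 235, 218 and 230 CPM in TdTomato+ libraries, a log2 fold change of -0.41 (SE 0.05, adjusted p = 3.2e-05, edgeR). The TdTomato- library of mouse 2 was the lowest of its group and still above every TdTomato+ library. *Rps3* fell by 0.21. *Rpsa*, which also serves as a laminin receptor precursor, fell by 0.35 from 478 ± 43.8 to 374 ± 17.8 CPM (SD, n = 5 each), a call that was lost under the GC and length offsets (log2 fold change -0.05, adjusted p = 0.35 by edgeR). *Rps15* and *Rps3a1* were among the 3 small subunit genes with the most counts per kb of exon. In TdTomato- and TdTomato+ cells these densities were 531 and 415 CPM per kb for *Rps15* and 248 and 240 for *Rps3a1*. The former fell by 0.35 on the log2 scale, and *Rps3a1* had a log2 fold change of -0.05 (SE 0.04) that was not called, but was called lower with library totals alone (-0.22) and higher under the GC and length offsets (0.17).

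*Rps25*, needed by several viral internal ribosome entry sites, fell by 0.43. *Rps6*, the substrate of the S6 kinases, fell by 0.33 from 206 ± 15.2 to 163 ± 9.25 CPM (SD, n = 5 each). *Rps27a*, whose product is made as a fusion with ubiquitin, fell by 0.32. Nearer to zero, *Rps23*, a protein of the decoding centre, and *Rps10*, a protein of the beak, both had log2 fold changes of -0.13 with adjusted p-values of 0.036 and 0.027 (edgeR) and overlapping groups. The count of *Rps10* is uncertain for its overlap with other genes. Calls for these 2 genes were lost under several alternatives, with adjusted p-values of up to 0.11 for *Rps10* and *Rps23* when a mouse was left out, and both took a positive sign, 0.07 and 0.09, under the GC and length offsets.

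*Rps15a* (ENSMUSG00000008683, chromosome 7 from 118104372 to 118116188, minus strand) was the single small subunit gene called higher. Its level was 147, 136, 135, 135 and 138 CPM in TdTomato- libraries and 169, 138, 134, 158 and 160 CPM in TdTomato+ libraries, a log2 fold change of 0.13 (SE 0.05, adjusted p = 0.038, edgeR). It was higher in 4 of 5 mice and the groups overlapped. This call was lost under 6 of the 15 alternatives, with an adjusted p of 0.12 without mouse 5, 0.095 without mouse 6, 0.097 without mouse 2, 0.083 without the mouse block and 0.064 with upper quartile scaling, and with a log2 fold change of -0.05 when libraries were scaled by their totals alone. *Rps7*, whose product can bind Mdm2, stood at 203 ± 16.5 and 218 ± 15.9 CPM (SD, n = 5 each) and was not called, with a log2 fold change of 0.11 (SE 0.06). The value was -0.07, not called, when libraries were scaled by their totals alone, and *Rps7* was called higher without mouse 4 (0.17), under the GC and length offsets (0.39) and under the centred offsets (0.20).

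The clearest changes among these genes concern paralogues. *Rpl22* (ENSMUSG00000028936, chromosome 4 from 152325742 to 152334071, plus strand) encodes an RNA-binding protein that ribosomes can do without. It was at 145, 149, 149, 161 and 167 CPM in the TdTomato- libraries of mice 2 to 6 and at 222, 178, 170, 215 and 217 CPM in their TdTomato+ libraries. Every TdTomato+ library exceeded every TdTomato- library, with a log2 fold change of 0.37 (SE 0.06, adjusted p = 3.6e-04, edgeR). Its paralogue *Rpl22l1* (ENSMUSG00000039221, chromosome 3 from 28805436 to 28807424, plus strand) moved the opposite way. It was at 17.0, 15.9, 18.7, 15.3 and 15.9 CPM in TdTomato- libraries and at 9.43, 10.5, 10.6, 7.91 and 8.54 CPM in TdTomato+ libraries, also without overlap, with a log2 fold change of -0.82 (SE 0.08, adjusted p = 9.5e-06, edgeR). Both directions and both calls held under each of the 15 alternatives.

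*Rps27l* (ENSMUSG00000036781, chromosome 9 from 66946086 to 66949516, plus strand), a paralogue of *Rps27* that p53 is known to induce, changed the most of all 82 genes. It was at 14.7, 16.9, 18.2, 17.9 and 18.2 CPM in TdTomato- libraries and at 6.30, 6.12, 6.00, 6.17 and 7.41 CPM in TdTomato+ libraries, a log2 fold change of -1.43 (SE 0.08, adjusted p = 4.5e-07, edgeR). The groups were far apart, and the call held under each of the 15 alternatives. *Rps27* itself was at 153, 143, 136, 143 and 151 CPM in TdTomato- libraries and at 145, 118, 120, 120 and 134 CPM in TdTomato+ libraries. This was a log2 fold change of -0.19 (SE 0.04, adjusted p = 0.0025, edgeR), with overlapping groups and with 0.04 under the GC and length offsets.

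**Figure D3:**
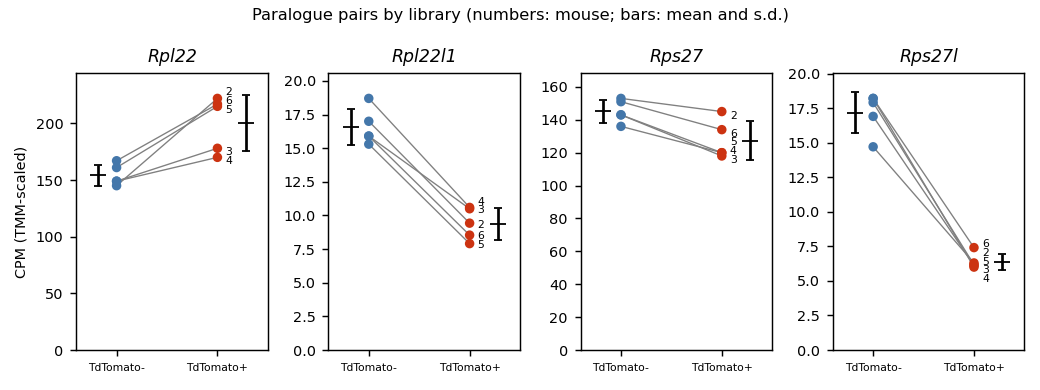
CPM after TMM scaling of *Rpl22*, *Rpl22l1*, *Rps27* and *Rps27l* in the 10 libraries, each panel with its own axis from 0. Points joined by a line are the libraries of 1 mouse, numbered at the right, and the bars are the mean and SD of 5 libraries. *Rpl22* is 145 to 167 CPM in TdTomato- and 170 to 222 CPM in TdTomato+ libraries, while *Rpl22l1* and *Rps27l* are lower in every TdTomato+ library.

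A ratio of 2 genes within a library does not depend on scaling, so the pairs were also compared as log2 ratios of counts, with an exact two-sided sign-flip permutation test over 5 mice whose smallest possible p is 0.062. The part of *Rpl22l1* in the counts of its pair was 10.5, 9.67, 11.2, 8.64 and 8.69% in TdTomato- libraries and 4.08, 5.57, 5.85, 3.56 and 3.8% in TdTomato+ libraries. All 5 mice moved down and the groups did not overlap. The log2 ratio differed by -1.19 ± 0.25 (SD of the differences, n = 5, exact p = 0.062, 0.083 adjusted over 4 pairs). For *Rps27l* the part of the pair was 8.80, 10.5, 11.9, 11.1 and 10.8% in TdTomato- libraries and 4.18, 4.92, 4.77, 4.89 and 5.23% in TdTomato+ libraries, a log2 ratio lower by 1.23 (the difference was -1.23 ± 0.12, SD, n = 5, exact p = 0.062, adjusted 0.083). At 5 mice neither test can pass 0.05.

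The third pair behaved differently. *Rpl36al* and *Rpl36a* encode nearly identical proteins, and reads shared between their copies are discarded in counts of uniquely mapped reads. Of the exonic length of *Rpl36al* 24.5% also lies in *Gm49383*, a protein-coding gene on the same strand, so the ratio of this pair is less certain. *Rpl36al* held 25.5 to 27% of the pair in TdTomato- and 25.2 to 28.5% in TdTomato+ libraries, overlapping ranges, and the log2 ratio differed by 0.06 ± 0.12 (SD, n = 5, exact p = 0.31). Both genes were called lower, *Rpl36a* with a log2 fold change of -0.21 (SE 0.04, adjusted p = 0.0015) and *Rpl36al* with -0.15 (SE 0.06, adjusted p = 0.049) by edgeR. The second call was lost under 7 alternatives, with adjusted p-values of 0.056 to 0.24, and under 1 of these, the GC and length offsets, the log2 fold changes were 0.03 and 0.10. The other 4 pairs listed, those of *Rpl39*, *Rpl3*, *Rpl10* and *Rps4x*, had no protein-coding partner among the rows analysed here.

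*Rpl7l1* (ENSMUSG00000063888, chromosome 17 from 46773907 to 46782672, minus strand) is related to *Rpl7* but belongs to the machinery that assembles the large subunit. It was at 68.3, 84.7, 86.9, 82.9 and 77.2 CPM in TdTomato- libraries and at 47.6, 51.3, 54.2, 49.1 and 53.3 CPM in TdTomato+ libraries, a log2 fold change of -0.64 (SE 0.05, adjusted p = 3.3e-06, edgeR), without overlap. *Rpl7* stood at 305 ± 19.2 and 289 ± 19.9 CPM (SD, n = 5 each) and was not called, with a log2 fold change of -0.08 (SE 0.05). It was called lower without mouse 2 (-0.13) and with library totals alone (-0.25), and higher under the GC and length offsets (0.20). The log2 ratio of the pair differed by -0.57 ± 0.11 (SD, n = 5, exact p = 0.062, adjusted 0.083). *Rps19bp1*, which binds the Rps19 protein, was not called, at 17.4 ± 2.30 and 17.7 ± 0.331 CPM (SD, n = 5 each).

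The other genes of the pathway were taken from fixed lists and read beside the 39.4% of all genes called lower and the 37.9% called higher. Of 79 genes of ribosome biogenesis, the nucleolar and cytoplasmic factors that process ribosomal RNA and assemble the subunits, 59 were lower and 5 higher, with a median log2 fold change of -0.36. *Ltv1*, a factor of small subunit maturation, fell by 1.07 from 23.2 ± 0.707 to 11 ± 0.526 CPM (SD, n = 5 each), and *Dkc1*, the pseudouridine synthase of box H/ACA particles, fell by 1.02 from 53.0 ± 4.77 to 26.2 ± 1.32 CPM. The abundant nucleolar proteins *Fbl*, *Npm1* and *Ncl* fell by 0.68, 0.48 and 0.42. *Utp14a* and *Nvl* rose by 0.32 and 0.31. Under the GC and length offsets 37 of the 79 were called lower.

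A separate ribosome inside mitochondria has its own proteins. Of 77 genes named for them, with symbols starting *Mrpl* or *Mrps* and a digit, 48 were lower and 2 higher, with a median of -0.22. Under the GC and length offsets 18 of the 77 were called lower. The list rests on symbols alone, which do not show that each product is a subunit. *Mrpl39* fell by 1.16 and *Mrpl54* fell by 1.14 on the log2 scale, *Mrps36* rose by 0.40, and *Mrpl33* had a log2 fold change of 0.22 (SE 0.10) that was not called. RNA polymerase I and its initiation factors, which transcribe ribosomal RNA, were lower for 6 of 15 genes and higher for 2, a share lower close to that of all genes. With library totals alone 10 of the 15 were called lower. The catalytic subunit *Polr1a* fell by 0.86, *Znrd1* fell by 0.63, and *Polr1d*, a subunit shared with RNA polymerase III, rose by 1.16 and *Taf1b* by 0.46.

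Translation factors were mixed. Of 37 initiation genes 21 were lower and 3 higher, with a median of -0.16, and 11 of the 37 were called lower under the GC and length offsets. *Eif1ad* fell by 0.73 and *Eif3g* by 0.56, and *Eif4a2*, the helicase paralogue, rose by 0.84 and *Eif3e* by 0.50. Of 10 elongation genes 4 were lower and 3 higher, with a median of 0.09, and 1 of the 10 was called lower under the GC and length offsets. *Eef1a2*, the form of elongation factor 1 alpha found in mature neurons and muscle, rose by 2.23 on the log2 scale, from 39.1, 38.1, 52.2, 42.2 and 43.4 CPM in TdTomato- libraries to 211, 200, 198, 207 and 189 CPM in TdTomato+ libraries. Its general form *Eef1a1* stood at 4180 ± 260 and 4350 ± 230 CPM (SD, n = 5 each) and was not called. *Eef2* rose by 0.21 and its inhibitory kinase *Eef2k* by 0.84, whereas *Eif5a* fell by 0.50 and *Eef1b2* by 0.37.

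Of 22 regulators of ribosomal protein synthesis 10 were lower and 5 higher, with a median of -0.07, and 6 of the 22 were called lower under the GC and length offsets. *Eif4ebp1*, a repressor of cap-dependent initiation under mTOR, fell by 2.13, from 3.90 ± 0.504 to 0.890 ± 0.304 CPM (SD, n = 5 each). *Trp53*, the gene of p53, fell by 0.97 from 125 ± 13.2 to 63.9 ± 7.34 CPM. *Rps6ka3* and *Tsc1* rose by 0.58 and 0.55, and *Mtor* rose by 0.19, while *Larp1* fell by 0.11. Of the 3 ribosomal proteins whose genes have other names, all 3 were called lower as reported. This count was 1 without mouse 3, without mouse 5, without mouse 6 and under the GC and length offsets, and 2 without mouse 4, with RLE scaling, without the mouse block, under the centred offsets and with DESeq2. Among these, *Fau* fell by 0.14 and *Rack1*, a scaffold on the small subunit, fell by 0.11.

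**Figure D4:**
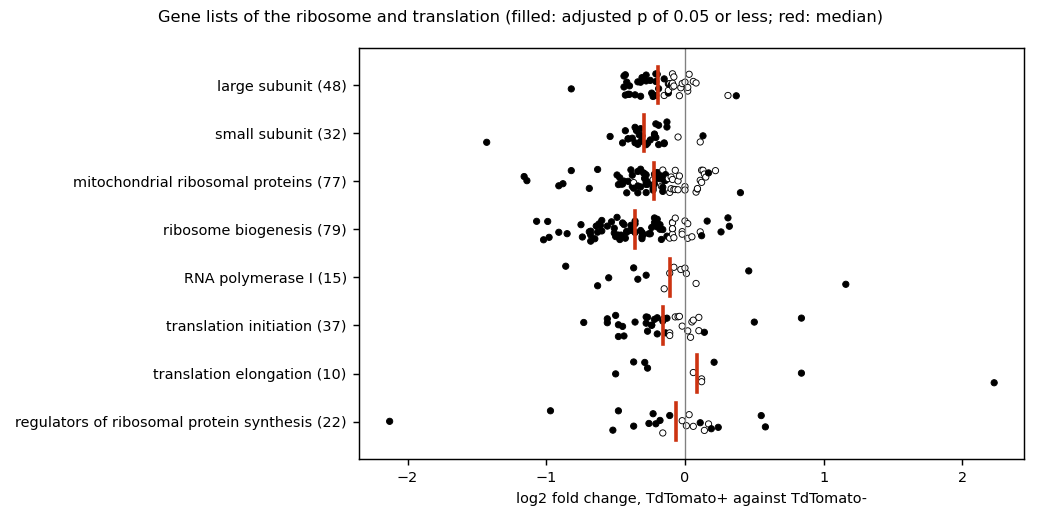
Log2 fold change, TdTomato+ against TdTomato-, of each gene (points, filled where called at an adjusted p of 0.05 or less) in the 2 subunits and in lists of related genes, with the number of genes in parentheses and the median as a red line. The ribosomal protein genes sit in a narrow band with medians of -0.20 and -0.30, and ribosome biogenesis has the lowest median, -0.36 (under GC and length offsets the median of all genes is 0.18 and that of the large subunit 0.07).

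The median exonic length of the ribosomal protein genes was 1776 bases against 4435 for all genes, and their median GC content 51.6% against 50.1%. Across the 80 subunit genes the log2 fold change had a Pearson r of -0.024 and a Spearman rho of -0.22 with GC content, and of 0.048 and -0.048 with log2 exonic length. These correlations are descriptions across genes of the same 10 libraries, which are not independent replicates. The 13 rows of ribosomal protein pseudogenes held 0.00767 ± 0.00120% of counts in TdTomato- and 0.00530 ± 0.000723% in TdTomato+ libraries (SD, n = 5 each). The genes themselves held 1.74 and 1.32%. Only uniquely mapped reads were counted, so a read that matches a gene and a pseudogene equally is in neither row. These shares therefore do not show how many reads of the genes were lost. The kinase genes left out by the rule held 0.0418 ± 0.00170% and 0.0414 ± 0.00114%.

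**Figure D5:**
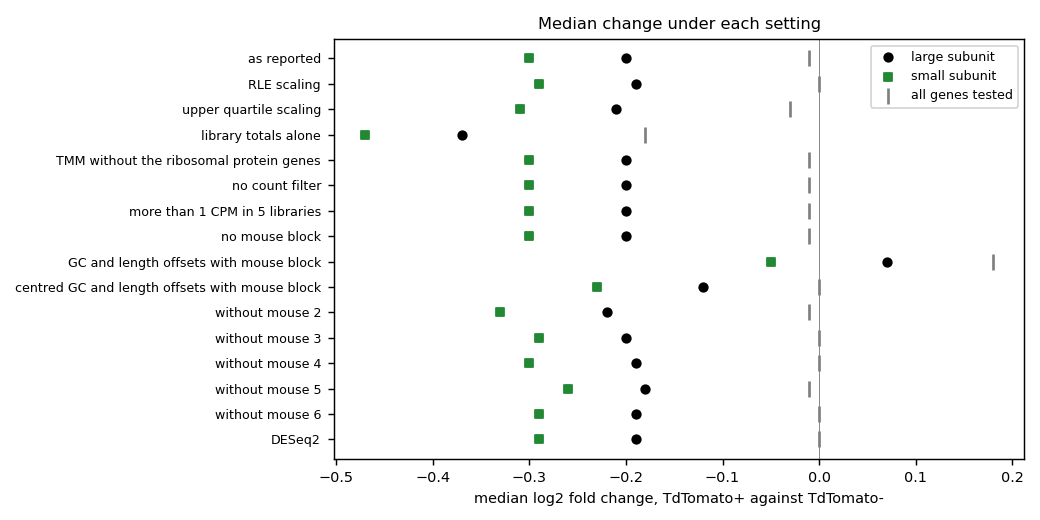
Median log2 fold change, TdTomato+ against TdTomato-, of large subunit genes (circles), small subunit genes (squares) and all genes tested (grey ticks) as reported and under 15 alternative settings. In every setting the small subunit lies left of the large subunit and both lie left of all genes, although scaling by library totals moves the 3 medians to -0.47, -0.37 and -0.18, and GC and length offsets move them to -0.05, 0.07 and 0.18.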

How the data were processed

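Polyadenylated RNA was measured in 10 libraries. The authors trimmed reads (bases under a Phred score of 28), aligned them to GRCm38 with STAR 2.4.2a with no more than 1 mismatch, kept unique alignments and deposited raw read counts per gene from quantMode, without normalization. The annotation release and strand setting are not given in the sources used here, so overlapping genes are uncertain. The authors state that they removed outliers after viewing a multidimensional scaling plot, without saying what was removed. All 10 deposited columns were used.

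Groups came from the sample labels. Counts were fitted with edgeR 4.0.16 (R 4.3.3): TMM factors, filterByExpr, and glmQLFTest after glmQLFit with a term for each mouse, since the study describes paired comparisons. Deviations from group means correlated at 0.186 to 0.316 between libraries of the same mouse and at -0.312 to 0.212 between different mice. No library pair of a group was identical (chi-square per degree of freedom 4.46 to 32). Standard errors are the log2 fold change divided by the square root of F. Ratios used a pseudocount of 0.5. Total counts were 23429034 to 27286180, and 3 counts correspond to 0.110 to 0.128 CPM, counting error only. Exonic length, GC content, overlap and coordinates came from GENCODE on GRCm38, with a symbol for 14271 genes and none for 29. Exonic length joins the exons of all annotated transcripts of a gene. The same steps were also run on simulated counts with 200 planted changes of 0.5, 1 and 3 on the log2 scale, using the dispersions of the reported fit. These simulations had no mouse effect and far fewer changed genes than the 39.4% lower and 37.9% higher called here. They therefore do not show how the fit behaves on the data.

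The members and all lists were chosen with earlier results of these data known. Members named are, per subunit, the 5 highest and 5 lowest by fold change and the 3 densest per kb, the stalk genes, *Rpsa*, listed paralogues and called genes that differ in sign from their subunit, and per list the 2 highest and 2 lowest. Others (*Rpl3*, *Rpl5*, *Rpl10*, *Rpl11*, *Rpl12*, *Rpl23a*, *Rpl35*, *Rps3*, *Rps6*, *Rps19*, *Rps26*, *Rps27a*, *Fbl*, *Npm1*, *Ncl*, *Eef1a1*, *Eef2*, *Mtor*, *Larp1*) were added for their roles after values were seen. Alternatives were RLE, upper quartile and no scaling factors, TMM without these genes, DESeq2 1.42.0, 2 filters, no block, GC and length offsets, and each mouse left out. A few genes are left unnamed and enter only the counts and medians.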

Additional observations from a re-analysis of the deposited data

Results flagged for a closer look

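In groups of 5 libraries, the lowest or highest value was compared with the others for the 31 named ribosomal protein genes in both populations, 62 groups in all, of which chance alone is taken to flag about 3.1. *Rps2* in the TdTomato- library of mouse 2 stood at 8.06 log2 CPM, below the 8.26 to 8.34 of the other TdTomato- libraries, with a gap of 0.721 of the range. The log2 fold change of *Rps2* was -0.45 without mouse 2, beside -0.41 with all mice. *Rps27l* in the TdTomato+ library of mouse 6 stood at 2.91 log2 CPM, above the 2.61 to 2.67 of the other TdTomato+ libraries, with a gap of 0.771 of the range. Its log2 fold change was -1.47 to -1.38 with each mouse left out in turn.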

How the results depend on the processing

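Directions and calls were recomputed under 15 alternatives. Dropping the count filter, 1 of these, repeats the reported fit, because that filter removed no gene. Of the 31 named ribosomal protein genes, 14 kept both under each of them (among them *Rpl22*, *Rpl22l1*, *Rpl7l1*, *Rps27l* and *Rps24*). Against 59 genes lower and 2 higher as reported, the fit with no replicate block, which ignores the pairing by mouse, gave 57 lower and 1 higher, upper quartile scaling 1 higher, library totals alone 1 higher, and DESeq2 53 lower and 2 higher. Leaving out 1 mouse gave 52 to 66 lower and 1 to 3 higher, 25 to 36 large and 26 to 29 small subunit genes lower, with 66 lower and 1 higher without mouse 2. Higher calls fell to 1 without mice 2, 5 or 6. Library totals alone gave 45 large subunit genes lower (29 as reported), 26 genes past 0.5 (4 as reported), medians of -0.37 and -0.47, and signs reversed for *Rpl17* (-0.12), *Rpl23* (-0.15) and *Rps15a* (-0.05), and for *Rpl15* (-0.10) and *Rps7* (-0.07), which were called in neither fit. Under that setting the median of all genes was -0.18, so the subunits lay 0.19 and 0.29 below it, as in the reported fit.

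The GC and length offsets with replicate block moved the median of all genes by 0.18 by their construction. They gave 22 lower and 21 higher, 11 large and 10 small subunit genes lower, 78 genes of related lists lower (151 as reported), and medians of 0.07 and -0.05, or 0.11 and 0.23 below that of all genes. Log2 fold changes reversed for *Rpl36a* (0.03), *Rpl36al* (0.10), *Rpl4* (0.06), *Rpl7* (0.20), *Rps10* (0.07), *Rps23* (0.09), *Rps27* (0.04) and *Rps3a1* (0.17), and *Rpl15* (0.30), *Rpl17* (0.29), *Rpl23* (0.27), *Rpl24* (0.54) and *Rps7* (0.39) were called higher. Brought to a mean of 0 in each library, the same offsets gave 53 lower and 5 higher. Paralogue ratios with no replicate block were -1.19, -1.23 and -0.57 for *Rpl22l1*, *Rps27l* and *Rpl7l1*, with exact permutation p = 0.0079, the smallest that test can give, in place of 0.062. Leaving out a mouse allows no p under 0.12 for these ratios. Low counts limit *Rpl24* alone among these genes.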
